A study of Mus musculus with 2 samples.

Results

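Mir219a-1, Mir219a-2 and Mir338 encode the miRNAs miR-219a and miR-338, which are known as oligodendrocyte miRNAs. They are 3 of the 1973 miRNA genes counted in hindbrain of mouse embryos at embryonic day 12.5, and were found by the symbol that GENCODE M21 gives to each Ensembl identifier in the count tables. The tissue came from B6NCrl embryos described as healthy, with no genotype change or treatment named. There was 1 group of 2 small RNA libraries, replicate 1 from a pool of 120 embryos and replicate 2 from a pool of 88, with males and females mixed. Labels call these biological replicates but give both the same donor entry. Each value is therefore an average over many embryos and over every cell type of the dissected tissue. The series has no later stage and no sorted cells, so levels are described here and no change over development was measured.

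A miRNA is cut from a hairpin RNA, whose 5′ and 3′ arms can each give a mature strand of about the length printed below. Bases 2 to 8 of the mature strand, the seed, pair with target messenger RNAs and lower their output. miR-219 and miR-338 rise when oligodendrocyte precursors leave the cell cycle and begin to differentiate. There they repress mRNAs that hold the precursor state, among them those of the growth factor receptor Pdgfra and the transcription factors Sox6 and Hes5. Oligodendrocytes, the myelin-forming cells of the central nervous system, mature after the stage sampled here. miR-219 has also been described outside this lineage, in neurons of the circadian clock and in zebrafish neural precursors.

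The mature strands in RefSeq (GRCm38.p6) are shown first, because they bear on which reads could be counted at which gene. For Mir219a-2, RefSeq lists the 5p strand only. The seed is in capitals.

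mmu-miR-219a-5p: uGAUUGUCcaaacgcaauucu

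mmu-miR-219a-1-3p: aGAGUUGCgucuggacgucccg

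mmu-miR-338-5p: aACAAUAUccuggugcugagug

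mmu-miR-338-3p: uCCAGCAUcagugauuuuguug

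These 4 strands have 4 different seeds, and no other mature strand among the 1738 mouse entries of the RefSeq table has any of them. All 3 genes had an entry in that table. The 5p strand of miR-219a is encoded identically by Mir219a-1 and Mir219a-2, so both genes share its seed. The miR-338 hairpin shares no seed with them.

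The hairpins follow, with the mature strands of the RefSeq table in capitals, to show where a copy of the same sequence exists elsewhere.

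Mir219a-1: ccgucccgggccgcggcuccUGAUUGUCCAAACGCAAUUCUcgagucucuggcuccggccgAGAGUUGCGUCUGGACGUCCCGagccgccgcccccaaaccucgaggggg

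Mir219a-2: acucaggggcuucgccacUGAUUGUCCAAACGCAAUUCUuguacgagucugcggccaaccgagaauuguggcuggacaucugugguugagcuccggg

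Mir338: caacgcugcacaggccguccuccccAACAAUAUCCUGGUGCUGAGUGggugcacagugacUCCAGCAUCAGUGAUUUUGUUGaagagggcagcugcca

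Mir219a-1 (ENSMUSG00000065555.1) lies at chr17:34024983-34025092 on the minus strand of GRCm38, between the protein-coding genes Ring1 and H2-Ke6. Its hairpin overlaps Gm26940, a long noncoding RNA gene on the same strand. Mir219a-2 (ENSMUSG00000065485.1) lies at chr2:29845631-29845727 on the minus strand, outside any annotated host gene and 629 bases from Urm1. Mir338 (ENSMUSG00000065600.1) lies at chr11:120014765-120014862 on the minus strand, inside the kinase gene Aatk on the same strand. Of 9 annotated Aatk transcripts, 6 span the hairpin and 0 exons overlap it, so it is intronic. All 3 hairpins are also overlapped by a miRNA gene on the opposite strand. These genes are Mir219c over Mir219a-1, Mir219b over Mir219a-2 and Mir3065 over Mir338. None of these 3 opposite-strand genes has a row in the tables.

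The miR-219a hairpins hold an identical run of 22 bases, from base 20 to 41 of Mir219a-1 and from base 18 to 39 of Mir219a-2. This run contains the whole 5p strand of 21 bases. The tables tally reads that match several positions in a row of their own and not under a gene. A 5p read that stays inside the run can be placed at neither gene, and only reads that reach beyond the run or come from the other arm can. The 3′ sides differ. When the 3p strand of Mir219a-1 was laid on the Mir219a-2 hairpin without gaps, the best stretch was at bases 62 to 83, where 15 of 22 bases were identical. Capitals mark the bases that differ.

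3p strand of Mir219a-1: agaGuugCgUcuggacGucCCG

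stretch of Mir219a-2: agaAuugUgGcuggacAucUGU

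The longest identical stretch between these is 6 bases, so reads from the 3′ side can be told apart. In Mir338, 0 of the 79 windows of 20 bases occur in a miRNA hairpin at another locus, against 3 of 91 in Mir219a-1 and 3 of 78 in Mir219a-2. Reads of either Mir338 arm could therefore be placed among the miRNA hairpins, while counts of the miR-219a genes leave out an unknown number of 5p reads. Since RefSeq lists no 3p strand for Mir219a-2, the counts of this gene come from 5p reads that reach beyond the run or from sequence not listed as mature. The shares of these were not measured. The value of miR-219a as a mature miRNA cannot be read from these tables.

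**Figure D1:**
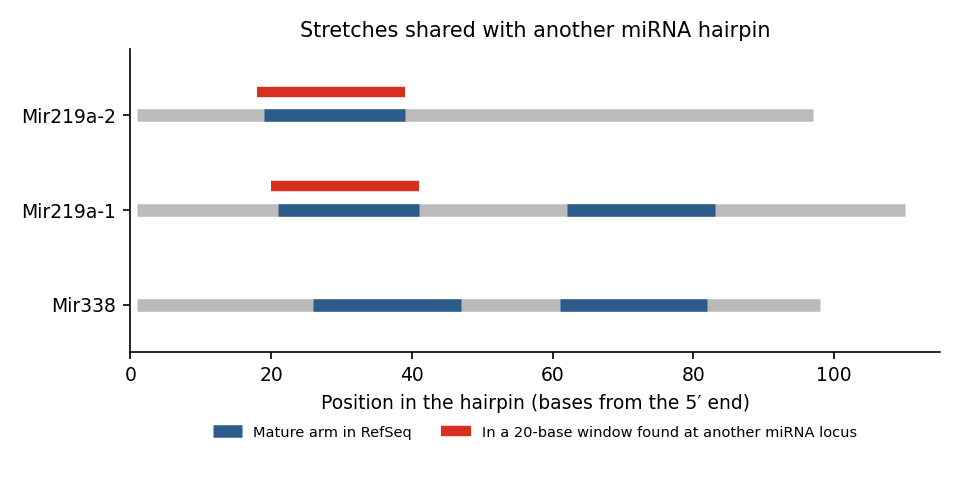
Map of the 3 hairpins in bases from the 5′ end (x axis). Grey bars are the hairpins, blue the mature strands of the RefSeq table and red the stretch covered by 20-base windows that also occur at another miRNA locus; the red stretch covers the whole 5p strand of both miR-219a genes and is absent from Mir338.

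Own-strand counts summed over all miRNA genes came to 2764276 in replicate 1 and 3946444 in replicate 2, and levels are counts per 1000000 of these (CPM). A count of 3, the limit that a count of 0 allows, equals 1.09 CPM in the first library and 0.760 CPM in the other. Reads matching several positions made up 32.7% and 33.4% of the 5947846 and 8656439 reads in the tables. Mir10a, encoded in a Hox cluster and a marker of hindbrain and spinal cord, had 26347 and 25880 CPM. Detected means at least 10 counts in both libraries, which held for 371 genes. Intervals and limits cover counting error only.

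All 3 genes were detected, at levels that differed from each other by more than the libraries differed. Mir219a-2 was well above the middle of the profile, Mir219a-1 nearer to it, and Mir338 was the lowest and below the median of the detected genes. In a bulk tissue, few cells with much of a miRNA and many cells with little cannot be told apart.

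Mir219a-2 had 13691 counts in replicate 1 and 12815 in replicate 2. These were 4953 CPM (exact Clopper-Pearson 95% interval 4870 to 5036) and 3247 CPM (3191 to 3304), with a mean of 4100 ± 1206 CPM (SD, n = 2). Replicate 1 was the higher library and the intervals did not overlap. Mir219a-2 ranked 51 among all genes by mean level, at 22.4 times the median of the detected genes, which was 183 CPM. It ranked 48 in replicate 1 and 61 in replicate 2. By reads placed at a single position it thus stood among the 105 genes at or above 1000 CPM.

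Mir219a-1 had 1178 counts in replicate 1 and 1544 in replicate 2. These were 426 CPM (402 to 451) and 391 CPM (372 to 411), with a mean of 409 ± 24.7 CPM (SD, n = 2). The libraries lay close together and their intervals overlapped. The gene ranked 145, at 2.24 times the median of the detected genes.

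Mir338 had 302 counts in replicate 1 and 323 in replicate 2. These were 109 CPM (97.3 to 122) and 81.8 CPM (73.2 to 91.3), with a mean of 95.5 ± 19.4 CPM (SD, n = 2). Replicate 1 was again the higher library. Mir338 ranked 229, at 0.523 times the median of the detected genes, and both libraries were far above the limit of 3 counts.

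**Figure D2:**
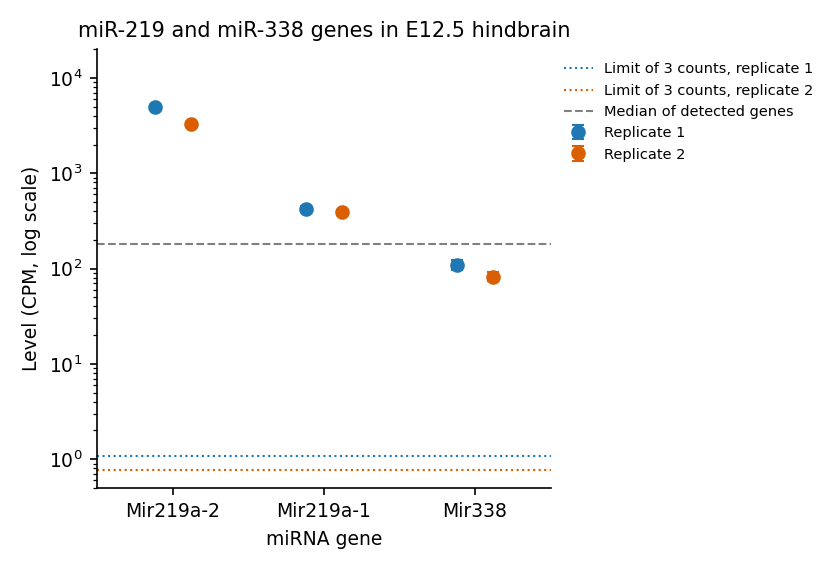
Levels of the 3 genes in CPM on a log axis, 1 point per library, with exact 95% counting intervals as bars, the median of the detected genes as a dashed line and the limit of 3 counts in each library as dotted lines. The points of different genes do not overlap, and only Mir338 lies below the median of 183 CPM.

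The order Mir219a-2, Mir219a-1, Mir338 held in both libraries. The ratio of Mir219a-2 to Mir219a-1 was 11.6 in replicate 1 (exact 95% interval 10.9 to 12.3) and 8.30 in replicate 2 (7.87 to 8.76). The ratio of Mir219a-1 to Mir338 was 3.90 (3.43 to 4.44) and 4.78 (4.24 to 5.41). Per base of hairpin the mean ratios were 11.3 and 3.87, so the different hairpin lengths did not change the order. The size of the ratio between the miR-219a genes moved between the libraries by more than counting error, while each ratio stayed well above 1. These ratios were not tested against 1. Each is a ratio of reads that could be placed, and the share of 5p reads lost at each miR-219a gene was not measured.

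Together the 3 genes held 5488 CPM in replicate 1 and 3720 in replicate 2, a mean of 0.460% ± 0.125 of the assigned counts. Mir219a-2 gave 90.2% and 87.3% of this sum, so the sum mostly restates Mir219a-2.

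**Figure D3:**
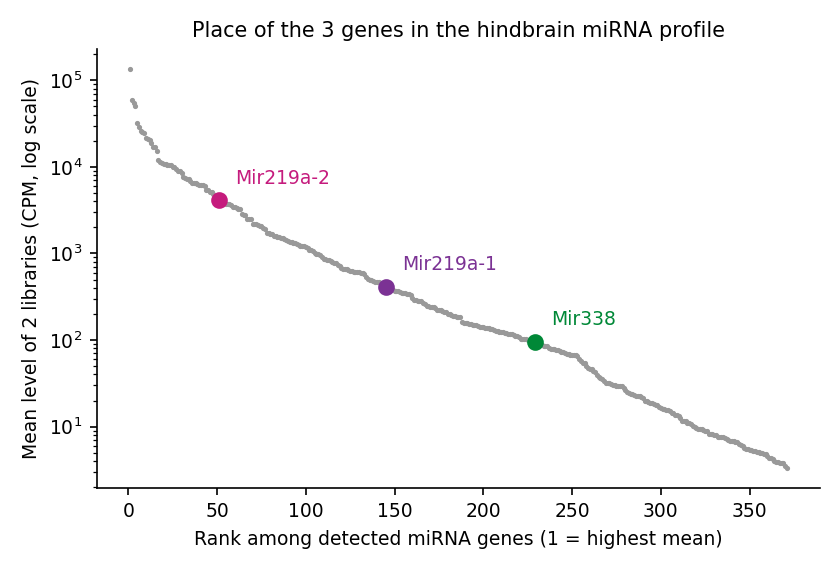
Mean level of the 371 detected genes (y axis, CPM on a log scale) against their rank (x axis), 1 grey point per gene, with the 3 genes in colour. Mir219a-2 is at rank 51, Mir219a-1 at 145 and Mir338 at 229, spread over the profile and not side by side.

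For each gene, the 3 genes nearest to it were taken by distance over the 2 libraries in log2(CPM + 1). For Mir219a-2 these were Mir22 (4548 and 3507 CPM, distance 0.17), Mir361 (4247 and 3695 CPM, 0.29) and Mir382 (4169 and 3714 CPM, 0.32), all higher in replicate 1. Those nearest to Mir219a-1 were Mir330 (447 and 413 CPM, 0.10), Mir148a (446 and 422 CPM, 0.13) and Mir494 (388 and 353 CPM, 0.20). Mir338 was nearest to Mir31 (111 and 80.1 CPM, 0.04), Mir222 (106 and 80.3 CPM, 0.06) and Mir3102 (105 and 86.4 CPM, 0.10). The measure is one of level in a single tissue over 2 libraries and says nothing of where in the tissue these genes are active.

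Among reads placed at a single position, those on the opposite strand were scarce at all 3 loci. At Mir219a-2, where Mir219b is annotated, each library had 2 opposite-strand counts, which are 0.0146% and 0.0156% of the reads placed at the locus. At Mir338, where Mir3065 is annotated, there was 1 in replicate 1 and 0 in replicate 2. By the limit of 3 counts, 0 of 323 reads allows a share of up to 0.929%. The Mir3065 strand is the complement of the Mir338 hairpin, as its RefSeq mature strand shows with the seed in capitals.

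mmu-miR-3065-5p: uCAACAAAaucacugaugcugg

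The reads counted at Mir338 and Mir219a-2 were thus nearly all on the strand of these genes.

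Between the replicate libraries, all 3 genes were lower in replicate 2 and none by 2-fold. The comparison tests these libraries and not conditions, with an exact two-sided binomial test per gene that covers counting error only, Benjamini-Hochberg adjusted over the 393 genes whose mean count reached 10. Mir219a-2 was 1.53-fold lower in replicate 2 (log2 ratio -0.61, 95% interval -0.64 to -0.57, exact binomial test, adjusted p = 3.19e-256). Mir338 was 1.33-fold lower (log2 ratio -0.42, -0.65 to -0.19, exact binomial test, adjusted p = 0.000868). Mir219a-1 had a log2 ratio of -0.12 (-0.23 to -0.01, exact binomial test, adjusted p = 0.0535), and this adjusted p ran from 0.0408 to 0.247 over other scalings, strands and count minimums. It was below 0.05 with TMM library sizes (0.0410), with both strands (0.0472) and over genes whose mean count reached 100 (0.0408). Differences of 2-fold or more with an adjusted p under 0.05 were called in 0 of the 3 genes and in 3.56% of all genes tested. Without a minimum fold, 2 of the 3 were called, against 51.7% of all genes in either direction and 26.5% in the lower direction. Since 203 of the 393 genes passed without a minimum fold, such a call does not set Mir219a-2 or Mir338 apart from other genes.

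The sizes can also be read against the general spread. The coefficient of variation (SD over mean) between the libraries was 29.4% for Mir219a-2, 20.3% for Mir338 and 6.04% for Mir219a-1, with a median of 12.1% over the genes tested. By absolute log2 ratio Mir219a-2 was the 54th largest of 393, Mir338 the 110th and Mir219a-1 the 285th. The difference of Mir219a-2 was thus larger than that of most genes and that of Mir219a-1 smaller.

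Markers of some other cell types moved the same way between the libraries. The 7 epithelium markers summed to 9660 CPM in replicate 1 and 6470 in replicate 2, and 4 of them were lower and 1 higher in replicate 2 at an adjusted exact p under 0.05. Mir200c (1959 and 746 CPM) and Mir429 (2950 and 1362 CPM) differed the most, and Mir203 (2230 and 2155 CPM) hardly differed. All 3 markers of sensory organs, Mir182, Mir183 and Mir96, were lower in replicate 2, with a sum of 22128 and 17022 CPM. The 4 leukocyte and microglia markers in the tables summed to 573 and 464 CPM, with 2 lower in replicate 2 and 2 not called. Another marker of that list, Mir142, is counted on the opposite strand of Mir142b, at 364 and 344 CPM, and is not in this sum. Mir126a, the endothelium marker, was also lower in replicate 2 (25987 and 23442 CPM). Other lists were higher in replicate 2 or mixed. Both smooth muscle and pericyte markers were higher in replicate 2, with a sum of 8348 and 10834 CPM. The 3 erythroid markers summed to 298 and 355 CPM, with 1 higher and 2 not called. The 4 mesenchyme markers were mixed, with 1 lower, 2 higher and 1 not called, and summed to 12931 and 10846 CPM. The skeletal muscle markers summed to 152 and 593 CPM, with both genes tested higher in replicate 2 and Mir1a-1 and Mir133a-1, which share sequence with other genes, at 0 counts in both libraries. The part of these cell types in the lower Mir219a-2 of replicate 2 was not tested.

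**Figure D4:**
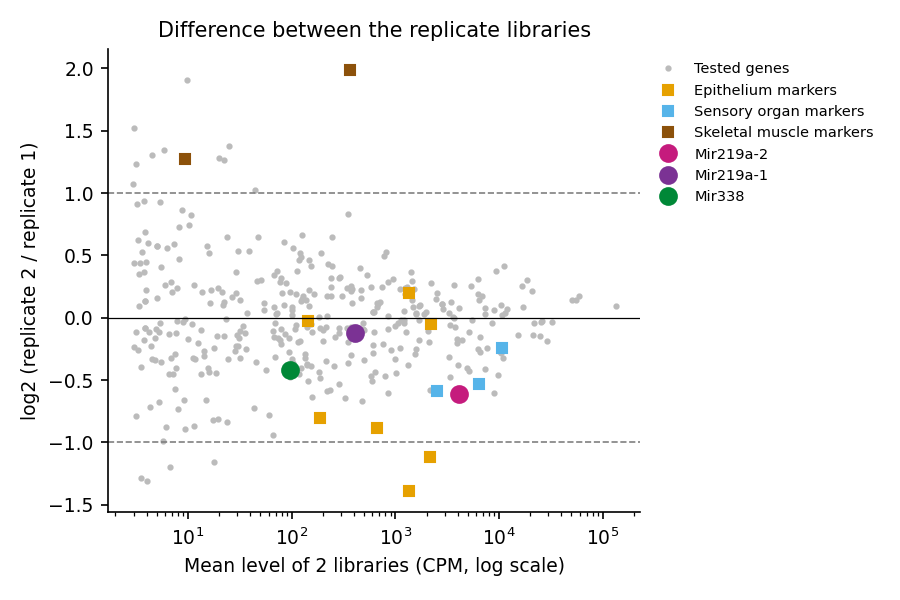
log2 ratio of replicate 2 to replicate 1 (y axis) against mean level in CPM on a log axis (x axis) for the 393 genes tested, 1 point per gene, with dashed lines at 2-fold. The 3 genes lie below 0 and inside the dashed lines, Mir219a-2 at -0.61 beside sensory organ markers, while Mir200c and Mir429 lie below the lower line.

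The other miRNAs known to act in oligodendrocyte precursors or their differentiation were mostly detected as well. Of a list of 20, 17 were found by the symbols searched and 16 of these were detected. Mir7a-1 and Mir7a-2 were counted under the symbols Mir7-1 (375 and 328 CPM) and Mir7-2 (210 and 156 CPM). Both were detected, but they are left out of the list values given here. The 17 genes found summed to 98249 CPM in replicate 1 and 102509 in replicate 2, so the 3 genes came to 0.0559 and 0.0363 of this sum. Most of it came from the cluster of Mir17, Mir18 and Mir20a, which promotes proliferation in many dividing cells, with Mir17 at 50795 ± 3598 CPM and Mir20a at 18801 ± 2775 CPM (SD, n = 2). Mir23a, reported to favour myelin by lowering lamin B1, had 6051 ± 1493 CPM. Its relative Mir23b had 10565 ± 1444 CPM. Of the 17 genes found by symbol, 9 share a run of 20 bases with another miRNA locus, Mir23a and Mir23b among them. Counts of these 9 can leave out reads. Mir138-1, which is induced with miR-219 and miR-338 in differentiating oligodendrocytes, had 394 and 518 CPM, close to the level of Mir219a-1, and Mir138-2 had 221 and 263 CPM. Unlike the 3 genes, both were higher in replicate 2. Both also share sequence with each other and lose reads that match both.

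Of the 16 list genes found by symbol and tested, 9 were higher and 3 lower in replicate 2 at an adjusted exact p under 0.05. The other 4 were not called and 0 reached 2-fold. Their median log2 ratio was 0.17, against -0.42 for the 3 genes and -0.04 over all genes tested. Mir7-1 and Mir7-2, left out of these values, were both lower in replicate 2, which would lower this median. Their log2 ratios were -0.19 and -0.43 (exact binomial test, adjusted p = 0.00324 and 1.04e-06). Mir9-1, also of this list and without a row of its own, is counted on the opposite strand of Gm25641, at 33.6 and 42.3 CPM.

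By reads placed at a single position, the 3 genes together lay below a list of neuronal miRNAs and above a list of choroid plexus miRNAs. The 15 neuronal miRNAs, of which 13 were detected, summed to 6159 CPM in replicate 1 and 6695 in replicate 2. The 3 genes came to 0.891 and 0.556 of this. Of the 15 neuronal miRNAs, 11 share sequence with another miRNA locus, so their sum can leave out reads. The same holds for 2 of the 3 genes and for 0 of the 2 choroid plexus miRNAs. The reads left out were not measured, so the order of these sums holds for placed reads only. Mir137, a regulator of neuronal differentiation, led the neuronal list with 3303 ± 56.2 CPM, followed by Mir153 at 1465 ± 211 CPM (SD, n = 2). Mir219a-2 exceeded Mir137 in replicate 1 (4953 against 3263 CPM) and not in replicate 2 (3247 against 3343 CPM), so their order was within the spread of the libraries. The neuronal list shares Mir138-1, Mir138-2 and Mir212 with the oligodendrocyte lineage list. That lineage list also shares Mir145a (124 and 171 CPM) with the smooth muscle and pericyte markers. Mir124a-2, 1 of the copies of the neuronal miR-124, which share sequence, stood at only 9.93 ± 0.789 CPM (SD, n = 2).

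Mir204 and Mir211, of the choroid plexus, summed to 1588 and 1622 CPM, and the 3 genes came to 3.46 and 2.29 times this. Mir338 alone was below Mir204 in both libraries (1572 and 1604 CPM) and above Mir211 (15.6 and 18.2 CPM). When genes that share a run of 20 bases with another locus were left out, which leaves Mir338 alone of the 3, the mean ratio was 0.0192 to the neuronal list and 0.0596 to the choroid plexus list. The neuronal list is then shorter too, since 11 of its 15 genes share such a run. Leaving out both miR-219a genes takes away most of the sum of the 3 genes, so the lower ratios follow from the filter. Mir219a-2 gave 90.2% and 87.3% of that sum, so where it stands against these lists rests mostly on Mir219a-2. With 2 libraries, no test between the lists was made.

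**Figure D5:**
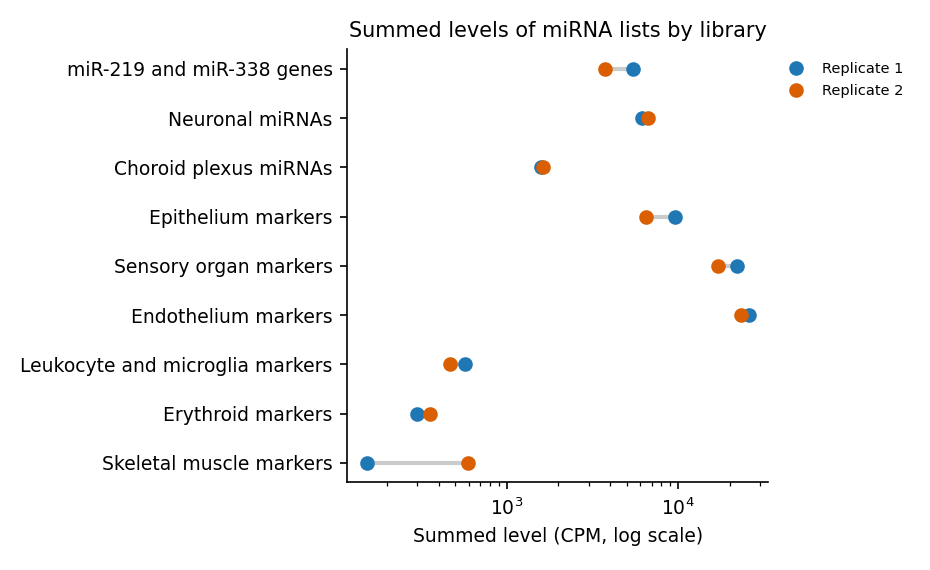
Summed level in CPM on a log axis (x axis) of the 3 genes and of 8 miRNA lists, 1 point per library, with a line joining the libraries. In reads placed at a single position, the 3 genes lie between the choroid plexus and neuronal miRNAs in both libraries. The skeletal muscle markers are the farthest apart.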

How the data were processed

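Small RNA (size range under 30, per the labels) of 2 hindbrain libraries was analysed. The authors deposited raw read counts per miRNA gene, with the assembly mm10 and GENCODE M4 named in the accompanying deposited text. The aligner is not given in the sources used here. The column taken as the gene's own strand held 97.6% and 97.7% of assigned counts. That reading is inferred from the totals. Rows naming no gene (unmapped 15.7% and 16.2%, several positions 32.7% and 33.4%, outside genes 3.98% and 3.72%) stayed out of all totals.

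CPM is per 1000000 assigned own-strand counts. Replicate ratios used 0.5 added to each count. IDs were matched to GENCODE M21 (1894 of 1973, the other 79 with at most 3 counts), and hairpins compared over 2202 M21 miRNA genes, since no genome was used. Small RNA ligation preferences act on each miRNA, so ratios between genes carry them. The edgeR 4.0.16 (TMM) and DESeq2 1.42.0 size factors were alternatives (R 4.3.3). Other steps used Python 3.11.15, SciPy 1.17.1, pandas 2.3.3, numpy 2.4.6 and matplotlib 3.10.9. The binomial test was tested on simulated data.

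The members, lists and tests were chosen with earlier results of these data known. Named genes are the 3 members, their nearest 3 genes each, and up to 5 detected genes per list by highest mean CPM. Mir10a, Mir124a-2, Mir1a-1, Mir133a-1, Mir9-1, Mir142, Mir212, Mir3074-1 and Mir99a were named outside this rule after their values were seen. Labels give the replicates as separate pools of embryos.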

Additional observations from a re-analysis of the deposited data

Results flagged for a closer look

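Reads on the strand opposite to Mir219a-1, where Mir219c is annotated, came to 7 counts in replicate 1 and 6 counts in replicate 2. They lie in a column left out of the levels, and both are above the limit of 3 counts. They were 0.591% (exact Clopper-Pearson 95% interval 0.238% to 1.21%) and 0.387% (0.142% to 0.841%) of the reads placed at the locus. Among the 371 detected genes, 6 had more than 3 opposite-strand counts in both libraries. Of these, Mir3074-1 (7.78% and 9.18%) and Mir203 (0.517% and 0.701%) had a higher share than Mir219a-1 as a mean of both libraries. The 2 counts per library at Mir219a-2 and the single count at Mir338 were under the limit.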

How the results depend on the processing

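Of 69 recomputed values, 62 stayed as reported and 7 moved. Staying means within 1 SD for a level or a ratio between genes or lists, within 1.5 times for a count of genes, and the same sign and side of the threshold for a replicate ratio. That threshold includes the 2-fold minimum. Without it, the call of Mir219a-1 depends on the scaling, strand and count minimum (adjusted p 0.0408 to 0.247, exact binomial test), and those of Mir219a-2 and Mir338 passed under all 7 alternatives. The level of Mir219a-1 was 472 CPM without Mir99a in the denominator and 444 CPM without genes that share sequence, both more than 1 SD above 409 CPM, since these settings shrink the denominator. Levels of Mir219a-2 (3247 to 4953 CPM) and Mir338 (81.8 to 110 CPM) stayed within 1 SD under all alternatives. These were both strands, the other denominators, TMM sizes and each library alone. With 2 libraries, each alone always lies within 1 SD of their mean. Leaving a library out could therefore move no level and no ratio between genes or lists. Without Mir99a, Mir219a-2 came to 4734 CPM and stayed only because its SD of 1206 CPM is large, while Mir219a-1 moved. Genes called between the libraries were 14, with 13 under DESeq2 size factors and 19 at a mean of at least 1 count, 4 at a mean of at least 100 counts and 203 with no minimum fold. Detected genes were 371, and 616 with at least 1 count in both libraries. The ratios to the neuronal and choroid plexus lists (0.723 and 2.88 on average) became 0.0192 and 0.0596 without genes that share sequence. That setting removes both miR-219a genes and 11 of the 15 neuronal miRNAs. The ratio to the choroid plexus list thereby went from above 1 to below 1. These 2 ratios and their alternatives were added after the data were seen. A replicate ratio with a library left out gives no value. No paired analysis was possible because there is 1 group. Depth limits Mir338 the most, with 302 and 323 counts.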

Other observations

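Mir219a-2 differed between the libraries by more than any gene of similar level. Of the 23 other genes tested whose mean lay within 1.5-fold of its 4100 CPM, 0 had a larger absolute log2 ratio than its 0.61, and their median was 0.13. The same count was 10 of 55 for Mir338 and 25 of 37 for Mir219a-1. The comparison was chosen after these values were seen, and no cause was tested. Mir219a-1 had an absolute log2 ratio of 0.12. Reads that stay inside the run shared with Mir219a-2 are counted at neither gene, so these ratios do not compare the 5p strand that both encode.

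The 3 genes and the epithelium markers kept nearly the same ratio in both libraries, at 0.568 in replicate 1 and 0.575 in replicate 2. To the sensory organ markers the ratio was 0.248 and 0.219, and to the erythroid markers 18.4 and 10.5. With 2 libraries, any lists that are lower in the same library look alike in this way.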
